A study of Mus musculus with 144 samples.

Results

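The genes described here are the mouse Zfp genes (the symbol Zfp followed by a number, for zinc finger protein) that were expressed in liver. They were chosen by that form of the symbol in the table of raw counts per gene and by their measured level, a mean of 10 counts or more over the 36 libraries of wild-type total RNA, which 221 of the 373 Zfp genes in the table met. The table holds 51912 genes, of which 11964 met the same floor and formed the set in which every comparison was tested. Because the floor was set on wild-type total RNA, the levels there are a description, and a Zfp gene seen in another kind of RNA alone is not among the 221. Each level comparison with wild-type total RNA uses the libraries of the floor again, so the choice favours falls from total RNA by members near it. Among the level comparisons, only polysomal against nuclear RNA uses none of these libraries.

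The series measured liver RNA over the day by QuantSeq, a method that reads 1 short stretch next to the poly(A) tail of each mRNA. It holds 144 libraries in 4 series of 36. In wild-type mice they come from total RNA, nuclear RNA and polysomal RNA (mRNA carrying several ribosomes), and the remaining series is total RNA labelled Bmal1-/-, a genotype that lacks a core activator of the circadian clock. All mice were male C57BL/6J animals kept in a light phase of 12 h and a dark phase of 12 h, and they ate and drank freely. Each series has 6 libraries at each of 6 zeitgeber times (hours after lights on): ZT2, ZT6, ZT10, ZT14, ZT18 and ZT22. The labels do not say whether replicates are separate animals, how nuclei and polysomes were isolated, or which part of the Bmal1 gene was altered, so p-values measure the spread between these libraries only.

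Most Zfp proteins are of the C2H2 kind, in which a pair of cysteines and a pair of histidines hold a zinc ion and each finger can contact a few bases of DNA. Many of the mouse genes lie in clusters of near relatives whose proteins carry a KRAB domain, which recruits Trim28 (KAP1) and the histone methyltransferase Setdb1 to silence retroelements and imprinted regions. Other members have different work: they activate promoters, bind RNA, help to build or survey ribosomes, or attach ubiquitin and SUMO. The symbol therefore groups proteins by a fold and not by a pathway.

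Of the 221 members, 220 were placed on the mouse genome through RefSeq (GRCm38.p6). Chromosome 7 holds 54 of them, chromosome 17 holds 29 and chromosome 8 holds 16. Another expressed Zfp gene lay within 200000 bp of 115 members, and 105 had none so close. Reads of clustered near-identical genes can be split or dropped in counting, so the values of clustered members carry that uncertainty.

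Promoters (250 bases before to 50 after the annotated start, RefSeq GRCm38.p6) were found for 183 members. They were searched on both strands, with overlaps allowed, for the E-box CACGTG that the clock activators bind, the D-box TTATGTAA, the ROR motif AGGTCA, the GC box GGGCGG and the CCAAT box CCAAT. The E-box was present in 15 member promoters (8.2%), against 10.5% of the promoters of the genes tested and 7.24% of all 27025 promoters in the table. No member promoter held the D-box, which was in 0.517% of those of the genes tested and 0.955% of all. At such shares its absence from 183 promoters tells little. The ROR motif was in 12% of member promoters, 12.6% of those of the genes tested and 16% of all. The GC box was in 50.3% of member promoters, 64.2% of those of the genes tested and 35.9% of all. For the CCAAT box the shares were 48.1%, 38.7% and 37.9%, in the same order. A match is only a run of letters, and no match says only that these letters are not in this window. The promoters of 5 genes that the results below turn on are given 5′ to 3′ along the gene, with motif matches in capitals. Zfp445 (chr9:122865957-122866256, minus strand) is shown because most nuclear site counts of the gene lay just downstream of this window. Zfp655 (chr5:145231492-145231791, plus) and Zfp809 (chr9:22225453-22225752, plus) varied over the day. Zfp277 (chr12:40445741-40446040, minus) had the smallest p for a different daily course in Bmal1-/- RNA, and Zfp839 (chr12:110850029-110850328, plus) rose most there. In Zfp445, Zfp655 and Zfp839 the capitals are GC boxes, in Zfp809 a CCAAT box on the other strand, and in Zfp277 both kinds.
Zfp445: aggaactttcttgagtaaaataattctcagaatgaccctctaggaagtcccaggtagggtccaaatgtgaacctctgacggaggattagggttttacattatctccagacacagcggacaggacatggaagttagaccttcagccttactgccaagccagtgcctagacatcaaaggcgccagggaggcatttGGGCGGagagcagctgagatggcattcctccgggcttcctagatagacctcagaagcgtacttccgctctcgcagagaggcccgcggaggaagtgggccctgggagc
Zfp655: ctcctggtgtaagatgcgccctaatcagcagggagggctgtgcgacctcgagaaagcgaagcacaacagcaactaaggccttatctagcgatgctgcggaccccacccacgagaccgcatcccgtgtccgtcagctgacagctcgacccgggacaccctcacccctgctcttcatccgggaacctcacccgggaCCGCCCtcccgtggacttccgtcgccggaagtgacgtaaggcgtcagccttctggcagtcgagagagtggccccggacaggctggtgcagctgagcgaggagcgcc
Zfp809: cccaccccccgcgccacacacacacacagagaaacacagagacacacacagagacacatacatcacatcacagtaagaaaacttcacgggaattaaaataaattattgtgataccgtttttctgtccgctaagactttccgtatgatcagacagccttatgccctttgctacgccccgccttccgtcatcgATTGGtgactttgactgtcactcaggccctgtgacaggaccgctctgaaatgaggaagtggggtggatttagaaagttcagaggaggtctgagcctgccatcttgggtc
Zfp277: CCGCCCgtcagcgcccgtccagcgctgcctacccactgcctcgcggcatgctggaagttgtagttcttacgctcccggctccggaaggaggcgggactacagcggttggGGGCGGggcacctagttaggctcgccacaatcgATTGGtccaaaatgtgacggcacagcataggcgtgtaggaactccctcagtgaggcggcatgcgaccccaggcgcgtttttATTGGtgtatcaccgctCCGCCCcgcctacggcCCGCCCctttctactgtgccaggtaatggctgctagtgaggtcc
Zfp839: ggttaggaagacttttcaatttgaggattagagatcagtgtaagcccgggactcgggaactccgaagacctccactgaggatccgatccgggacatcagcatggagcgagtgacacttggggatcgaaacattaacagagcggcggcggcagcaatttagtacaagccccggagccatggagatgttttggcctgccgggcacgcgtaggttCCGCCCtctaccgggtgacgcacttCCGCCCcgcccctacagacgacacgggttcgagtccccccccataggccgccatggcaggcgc
None of the 5 windows held the E-box, the D-box or the ROR motif.

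Levels are given in CPM, a gene's counts scaled by the total of its library. Since each mRNA gives reads from its end, CPM is not divided by length. Zfp mRNAs were scarce: the median member had 4.45 CPM in wild-type total RNA, against 12.4 CPM for all genes tested, 39 members were above 10 CPM and 125 were below 5 CPM. The summed level of the members was 1815 CPM, with an SD of 115 over 36 libraries, in wild-type total RNA, of which the 10 most abundant genes held 30.6%. It was 2194 ± 521 in nuclear, 1892 ± 227 in polysomal and 2034 ± 152 in Bmal1-/- total RNA.

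Zfp91, which encodes an atypical E3 ubiquitin ligase, was the most abundant member, at 139 ± 25.8 CPM (SD, n = 36; lowest library 69.0, highest 204). Zfp706 followed at 76.4 ± 12.9 CPM. Zfp445, a KRAB protein that protects imprints together with Zfp57, was at 66.7 ± 17.5 CPM. Below it stood Zfp106 (an RNA-binding protein needed by motor neurons and muscle) at 51.8 ± 12.8 CPM and Zfp207 (a spindle and kinetochore protein also known as BuGZ) at 50.4 ± 6.87 CPM. Zfp148, a protein of GC-rich promoters also known as ZBP-89, was at 42.5 ± 5.79 CPM. The next 4 were Zfp871 at 38.0 CPM, Zfp644 at 33.4 CPM, Zfp318 at 29.1 CPM and Zfp292 at 29.0 CPM. The ranges of neighbours in this order overlapped. At the floor, Zfp383 (mean 10.4 counts), Zfp974 (10.1) and Zfp995 (10) were just inside, and Zfp334 (9.81), Zfp182 (9.19) and Zfp94 (9.08) just outside.

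Depth ran from 5316601 to 9831142 counts in wild-type total RNA, from 1662449 to 6620128 in nuclear, from 2578048 to 13068044 in polysomal and from 4379549 to 14281894 in Bmal1-/- libraries. A library detected 219 to 221 members in both total series, but as few as 200 in nuclear and 193 in polysomal RNA. Several libraries stood apart: 1 ZT22 library of each series held Xist, an RNA of female cells, at 165 CPM or more although the animals are labelled male, against at most 5.67 CPM elsewhere. Libraries of wild-type total RNA at ZT2 (replicate 4) and of polysomal RNA at ZT22 (replicate 1, also one of those with Xist) correlated with their group at less than 0.92. Counts without these 5 libraries are given beside the main ones. Among nuclear RNAs, Neat1 was higher in nuclear than in total RNA (medians 1411 and 157.3 CPM), while Malat1 was not (1482 and 1750 CPM). In the libraries labelled Bmal1-/-, Arntl (the symbol of Bmal1) was counted at a median of 10.9 CPM (5.17 to 18.6), against 6.46 CPM (0.251 to 19.3) in wild-type total RNA. A tag at the 3′ end need not lie in the altered part of the gene, so this level checks nothing about the genotype. The daily courses did differ: in a fitted 24 h curve the ratio of peak to trough was 14.1 for Arntl in wild-type and 1.22 in Bmal1-/- total RNA. For the clock gene Dbp it was 95.4 and 1.32.

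Nuclear RNA was first set against total RNA of the same genotype, to see which Zfp mRNAs were relatively rich in the nucleus. Nearly equal numbers went each way: 99 members were higher and 80 lower in nuclear RNA, and 42 did not pass the test. These 179 are 81% of the members, where 82.6% of all genes tested passed, 40.9% higher and 41.8% lower (edgeR quasi-likelihood test over the mean of the time points, Benjamini-Hochberg adjusted p under 0.05, also the threshold below). A change of at least 2-fold was met by 62 members (28.1%), against 34.6% of all genes. The median log2 change of the members was 0.10, and of all genes -0.01. When all genes with at least 1 count set the scale, the members' median turned to -0.07 with 86 higher and 94 lower, so the balance of directions rests on the scaling. Without the libraries that stood apart 176 passed.

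**Figure D1:**
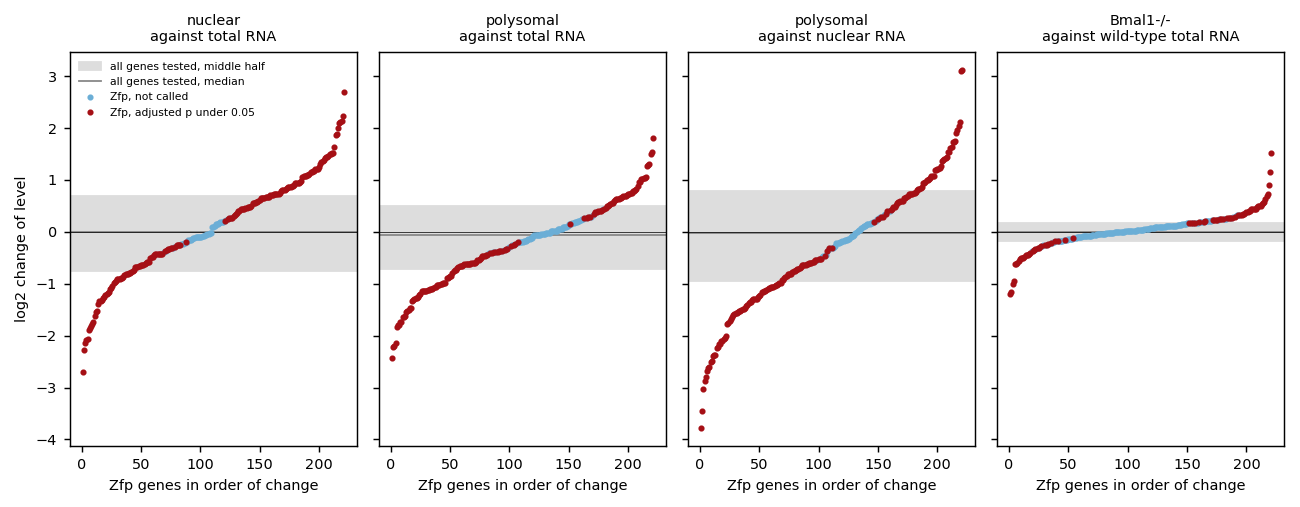
The 221 Zfp genes ranked by their log2 change in the 4 comparisons (horizontal axis, rank; vertical axis, log2 change); red points passed at an adjusted p under 0.05, and the grey band spans the middle 50% of all genes tested. Changes of nuclear against total RNA and of polysomal against nuclear RNA reach past 2 on the log2 scale on both sides. In polysomal against total RNA the largest rise is 1.82, and few changes in Bmal1-/- pass 1.

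Zfp282, which encodes a KRAB repressor, had 10.6 CPM in the lowest, 27.9 in the median and 54.8 in the highest nuclear library, against 2.37, 4.23 and 7.35 CPM in total RNA. Every nuclear library was above every total library, and the gene was 6.46-fold higher (log2 2.69, SE 0.09, adjusted p = 2.82e-39, n = 36 each). Zfp653 was at 4.85 to 24.6 CPM (median 11) in nuclear and 1.13 to 3.94 CPM (median 2.25) in total RNA, again without overlap (log2 2.23, SE 0.11, adjusted p = 2.35e-29). Zfp276 had a nuclear median of 26.3 CPM (10.1 to 57.3) and a total median of 5.76 CPM (2.45 to 11.8), and only the ends of the ranges overlapped (log2 2.13, SE 0.10). The paralogs Zfp608 and Zfp609 moved alike, with nuclear medians of 8.82 and 18.3 CPM against 1.71 and 4.69 CPM in total RNA and log2 changes of 2.12 (SE 0.14) and 1.99 (SE 0.12). Zfp324 completed the 5 largest rises at 2.09 (SE 0.13, medians 12.4 and 3.08 CPM).

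Zfp960 was at 2.14 to 12.1 CPM (median 4.69) in total RNA but at a median of 0.725 CPM in nuclear RNA, where 6 libraries had 0 counts and the highest 3.29 CPM. It was 6.46-fold lower in nuclear RNA (log2 -2.69, SE 0.21, adjusted p = 3.87e-19). Zfp120 was at 7.27 to 16.3 CPM (median 12.1) in total and 0 to 6.30 CPM (median 2.45) in nuclear RNA, so that every nuclear library lay below every total library (log2 -2.09, SE 0.12, adjusted p = 1.35e-25). Zfp958 (-2.27), Zfp433 (-2.15) and Zfp973 (-2.07) fell by similar amounts from total medians of 3.94, 1.46 and 2.23 CPM. At such levels many nuclear libraries had 0 counts, 17 of 36 for Zfp433. The size of a fall by a member so near the floor is a description, since the total RNA libraries also set the floor. In all, 4 members had no overlap between the groups (Zfp282, Zfp609 and Zfp653 above, Zfp120 below), where 7.06% of all genes had none.

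**Figure D2:**
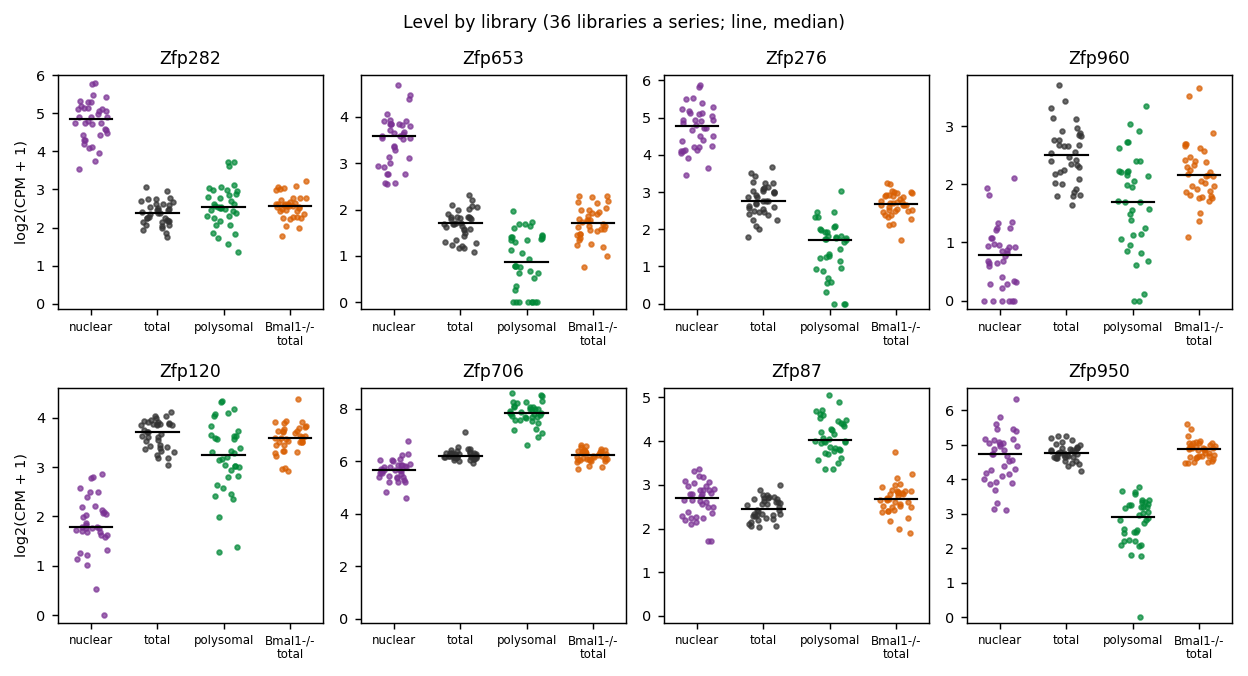
Level by library (vertical axis, log2 of CPM + 1) of 8 Zfp genes in nuclear, total, polysomal and Bmal1-/- total RNA; each point is 1 library and each line a median of 36. Zfp282, Zfp653 and Zfp276 stand highest in nuclear RNA, Zfp706 and Zfp87 in polysomal RNA, and Zfp950 is lowest there.

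By role, the 11 members that work on RNA or translation were divided: 4 rose, 6 fell and 1 did not pass (median log2 -0.50, all genes -0.01). Over all genes tested 40.9% rose and 41.8% fell, and the counts of these short lists carry no test. The 6 that fell were Zfp830 (a splicing factor, -1.33), Zfp326 (a subunit of the DBIRD complex that couples splicing to transcription, -0.89), Zfp622 (which matures the large ribosomal subunit, -0.74), Zfp598 (the ubiquitin ligase that senses collided ribosomes, -0.67), Zfp706 (-0.58) and Zfp638 (an RNA- and DNA-binding nuclear protein, -0.50). Those that rose were Zfp593 (a nuclear export factor of the large ribosomal subunit, 0.76), Zfp36 (tristetraprolin, which brings about decay of AU-rich mRNAs, 0.68), Zfp346 (a double-stranded RNA-binding protein, 0.60) and Zfp106 (0.22), the last of which did not pass when all genes with at least 1 count set the scale (log2 0.05). Zfp207 had -0.10 (adjusted p = 0.252). Of the 7 promoter-binding activators 5 rose and 2 fell (median 0.57). Of the 5 tested imprint and retroelement silencers 3 rose and 2 fell, and of the 5 tested adipose and metabolic regulators 4 rose and 0 fell (edgeR; the remaining regulator did not pass). Among the ligases, Zfp91 was lower in nuclear RNA (-0.98, SE 0.07) and the SUMO ligase Zfp451 higher (1.05, SE 0.09). Of 19 co-repressor genes tested, which are not Zfp genes, 11 rose and 5 fell, among them Trim28 (0.62) and Setdb1 (0.90), both higher in nuclear RNA.

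Symbols from Zfp900 to Zfp999, a group set apart after its values were seen, stood largely on the low side: 21 of 32 were lower and 3 higher in nuclear RNA, with a median of -0.67. They were also low in polysomal against total RNA, with 18 lower and 5 higher (median -0.47, all genes 40.3% and 35.9%). Polysomal against nuclear RNA, which uses no library of the floor, gave 12 lower and 14 higher (median 0.08, all genes 41% and 39.7%). In nuclear against total RNA the 115 clustered members gave 48 higher and 46 lower (median -0.07), and the 105 without a close neighbour gave 51 higher and 34 lower (median 0.22). Over all genes tested 40.9% were higher and 41.8% lower, and the clustered members were near these shares. These splits are descriptions without a test. The libraries also differed in cell markers. The summed level of 5 stellate cell markers ran from 95.1 to 231 CPM in nuclear RNA and from 217 to 378 CPM in total RNA, and that of 5 hepatocyte markers from 23581 to 70924 CPM and from 37878 to 97323 CPM. No marker was at 0 throughout, and their part in the result was not tested. In bulk RNA, fewer cells of a type and less RNA per cell cannot be told apart.

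Polysomal RNA was set against the same total RNA libraries, so the comparison shares its controls with the nuclear one. Here more members were lower than higher: 96 fell, 54 rose and 71 did not pass. The 150 that passed are 67.9% of the members, where 76.2% of all genes passed (35.9% higher, 40.3% lower), and 54 differed at least 2-fold (24.4%, all genes 27.6%). The median was -0.19 for the members and -0.05 for all genes. With median-ratio scaling these became -0.27 and -0.13, and the share of higher among called members moved from 36% to 31.6%. Leaving out the libraries that stood apart gave 150 as well.

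Zfp87 had the largest rise, from 3.12, 4.49 and 6.92 CPM (lowest, median and highest total library) to 9.22, 15.3 and 32.2 CPM in polysomal RNA. No library of one group reached the other, and the gene was 3.52-fold higher (log2 1.82, SE 0.10, adjusted p = 5.99e-27). Zfp706, already the second most abundant member, rose from a median of 73.4 CPM (60 to 139) to 228 CPM (98.2 to 389), with a log2 change of 1.54 (SE 0.09, adjusted p = 1.45e-26). Only the most extreme libraries overlapped, and in polysomal RNA its median was above that of Zfp91, at 85.3 CPM. Zfp593 rose from a median of 6.52 CPM to 18.6 CPM (log2 1.49, SE 0.10). Zfp367 (1.30, SE 0.14) and Zfp931 (1.29, SE 0.19) completed the 5 largest rises, from total medians of 8.19 and 1.43 CPM.

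On the other side, Zfp950 fell from a median of 26.1 CPM (17.8 to 37.3) to 6.57 CPM (0 to 12.6), without overlap (log2 -2.15, SE 0.11, adjusted p = 2.19e-28). Zfp318, known for allowing IgD expression in B cells, fell in the same way from 19.1 to 37.4 CPM (median 30.3) to 3.16 to 16.1 CPM (median 9.64), again without overlap (log2 -1.73, SE 0.08). Zfp605 (-2.43, SE 0.27), Zfp937 (-2.23, SE 0.28), Zfp408 (-2.21, SE 0.29) and Zfp995 (-1.84, SE 0.29) were near the limit of detection, with total medians from 1.07 to 2.56 CPM and 13 or 14 polysomal libraries at 0. Members so near the floor were chosen by the same total RNA libraries, and Zfp995 had a mean of exactly 10 counts there. The size of such falls is a description. Just 3 members did not overlap between the groups (Zfp87 above, Zfp318 and Zfp950 below), where 4.49% of all genes did not.

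The RNA and translation list divided into 5 higher and 6 lower (all genes 35.9% and 40.3%). Besides Zfp706 and Zfp593, Zfp36 rose by 1.26 (SE 0.14; medians 13.9 and 5.41 CPM), Zfp346 by 0.40 and Zfp207 by 0.15. With median-ratio scaling neither Zfp346 (0.32) nor Zfp207 (0.07) passed. Zfp638 fell most, by 1.79 on the log2 scale, from a median of 28.4 CPM (21.1 to 41.9) to 8.03 CPM (1.81 to 22.2). Zfp830 and Zfp326 both fell by 0.99, Zfp106 by 0.53, Zfp598 by 0.46 and Zfp622 by 0.25. Both ligases fell, and of the imprint and retroelement silencers 2 fell and 0 rose: Zfp445 (-1.62, SE 0.11, median 21.0 CPM) and Zfp809 (-0.44, SE 0.10, median 15 CPM), a KRAB protein that recognises a retroviral primer binding site. Co-repressor genes were lower in 12 and higher in 4 of 19 cases, though Trim28 was higher (0.58). Red cell markers summed to 891 to 10034 CPM in polysomal and 301 to 5819 CPM in total RNA, immediate early genes to 17.3 to 187 and 12.4 to 91.6 CPM, and hepatocyte markers to 13926 to 64041 and 37878 to 97323 CPM. Their part in the result was not tested.

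Set directly against nuclear RNA, polysomal RNA was lower for 105 members and higher for 67, and 49 did not pass. The 172 that passed are 77.8% of the members, where 80.7% of all genes passed (39.7% higher, 41% lower), and 95 differed at least 2-fold (43%, all genes 42.6%). The median was -0.31 for the members and -0.02 for all genes, or -0.44 and -0.14 with median-ratio scaling. Zfp276 spanned the widest range, from a nuclear median of 26.3 CPM to a polysomal median of 2.30 CPM (0 to 7.19), 13.7-fold lower without overlap (log2 -3.77, SE 0.19, adjusted p = 4.79e-30). Zfp653 fell from 11 to 0.816 CPM in median, also without overlap (log2 -3.45, SE 0.23). These 2 were the members without overlap, where 6.96% of all genes had none. Zfp692, described as a repressor of the gluconeogenic gene Pck1, fell from a median of 5.83 CPM to 0.686 CPM (log2 -3.02, SE 0.25), with 9 polysomal libraries at 0. Zfp608 (-2.88) and Zfp408 (-2.80) followed.

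The largest rises from nuclear to polysomal RNA were of Zfp931, from a median of 0.279 CPM (13 libraries at 0) to 3.47 CPM (log2 3.12, SE 0.31), and Zfp973, from 0.43 to 4.27 CPM (log2 3.09, SE 0.27). Zfp706 rose by 2.11 (SE 0.10, adjusted p = 2.02e-31) from a nuclear median of 49.5 CPM (23.6 to 110), so nuclear and polysomal ranges met only at their ends. Zfp946 (2.04, SE 0.29) and Zfp433 (1.96, SE 0.36) were scarce in both. Of the RNA and translation list 5 were higher, 2 lower and 4 did not pass (all genes 39.7% higher, 41% lower). The metabolic regulators gave 4 lower and 0 higher of 5 tested, and the activators 4 lower and 2 higher of 7.

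The deposited filtered list of polyadenylation sites places 374 sites in 139 members: 25 have 1 site and 114 have at least 2, up to 8. Sites are numbered here from 5′ to 3′ along the gene. The share of a gene's site counts at a site was testable for 78 members between nuclear and total RNA. Of their 229 sites, 172 differed (75.1%), 74 with a higher and 98 with a lower share in nuclear RNA, and 75.1% of all sites tested passed (34% higher, 41.1% lower). Of the 78 genes, 72 had at least 1 such site.

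Zfp644, whose protein works with the histone methyltransferase G9a, showed the widest difference. Its site 1 (chr5:106695821-106695834, minus strand) took 40.3% of the gene's site counts in the lowest, 79.9% in the median and 95% in the highest nuclear library. In total RNA the same site took 1.38%, 4.07% and 8.6%, so no library of one group came near the other (log2 change in usage 4.22, SE 0.08, adjusted p = 9.23e-50, means of 107 and 137 counts per library). Its mean share in total RNA, 4.17%, was under the 5% limit for testing. The site met that limit only through the nuclear libraries where it is high, so this p-value is a description. The site lies inside the gene, 79088 bp before its annotated end, 1006.5 bp past the start of the gene record and 1002.5 bp past a start in the promoter table. In polysomal RNA it took 4.11% in median (0 to 54.5%, n = 35 libraries with counts).

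Site 1 of Zfp445 (chr9:122865681-122865760, minus) also lies far before the annotated end, by 16810 bp. It is 285.5 bp past the start in the promoter table, just downstream of the promoter printed above, but 21130.5 bp past the start of the gene record, which reaches further upstream. Its share was 69.7% ± 12.9 in nuclear RNA (SD, n = 36; 34.6 to 88.8%), 9.22% ± 3.44 in total RNA (0.717 to 16.9%) and 4.36% ± 5.68 in polysomal RNA (0 to 23.0%). Nuclear and total ranges did not overlap (log2 2.93, SE 0.09, adjusted p = 1.07e-37). Polysomal usage was lower than nuclear usage by a log2 change of -4.14 (SE 0.21, adjusted p = 1.73e-27). In that comparison the site met the 5% limit for testing only through its nuclear share, so the p-value is a description. The nuclear gene level of Zfp445, 1.35-fold above total RNA, thus came mostly from a site that held few counts in total and polysomal RNA. The same holds for the higher nuclear gene level of Zfp644 (2.10-fold). The sequence at these 2 sites was not analysed here, so whether their counts mark RNA ends or priming on A-rich runs inside longer RNA was not tested.

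Sites so close to a start of the promoter table were rare. Among the members tested, 6 sites in 5 genes (Zfp266, Zfp30, Zfp445, Zfp644 and Zfp830) lay within 2000 bp past that start and more than 1000 bp before the gene end, and 5 had a higher and 1 a lower share in nuclear RNA. Of 408 such sites over all genes 51% were higher and 25% lower. The window was chosen after the values of Zfp644 and Zfp445 were seen and carries no test.

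In the other genes named for this comparison, the site with the widest difference lay nearer the gene end. Site 3 of Zfp655 (chr5:145247292-145247312, plus) took 65.1% ± 17 in nuclear RNA and 21.5% ± 9.31 in total RNA (log2 1.57, SE 0.12, adjusted p = 2.35e-18), with 42.7% ± 7.30 in polysomal RNA. Site 1 of the gene, 9511.5 bp before the annotated end, held 17.5% in nuclear and 40.7% in total RNA, and its site 2 held 17.4% and 37.8%. Site 2 of Zfp395 (chr14:65398857-65398892, plus) went the other way, from 82.1% ± 8.28 in total to 39.9% ± 17.4 in nuclear RNA (log2 -1.05, SE 0.09, adjusted p = 1.13e-15). Ranges of Zfp655 site 3 and of Zfp395 site 2 overlapped between the groups (15.4 to 96.3% against 6.25 to 44.3%, and 6.67 to 89.3% against 49.3 to 93.2%).

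**Figure D3:**
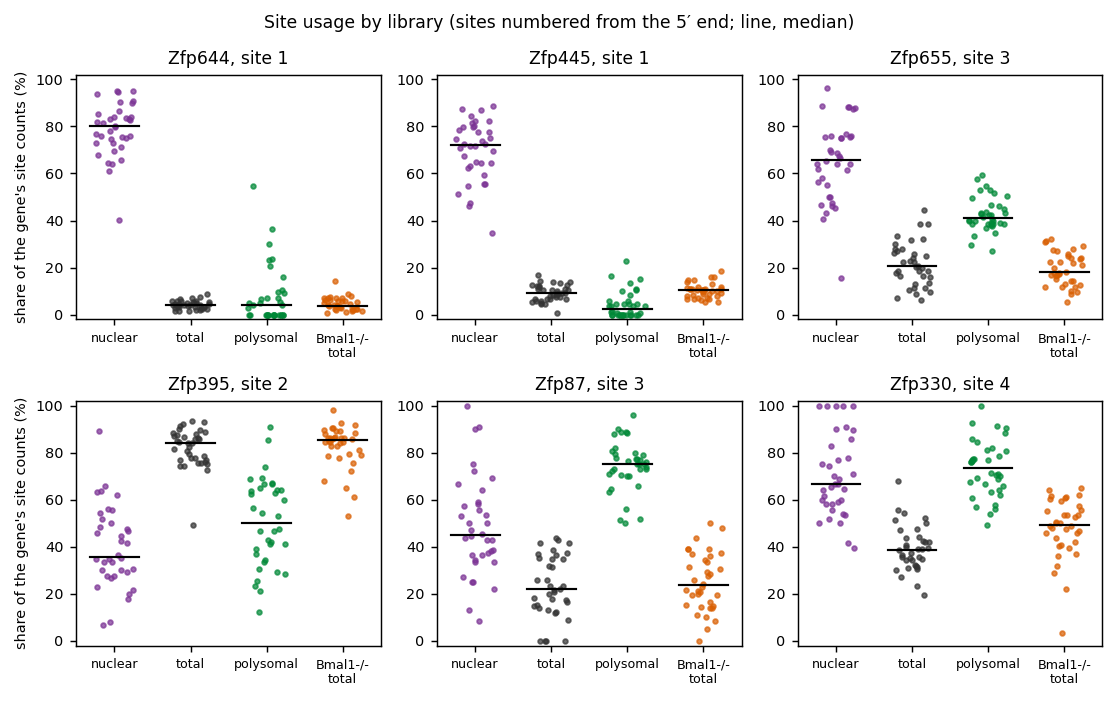
Share of a gene's site counts (vertical axis, %) at 1 site of each of 6 Zfp genes, by library, in nuclear, total, polysomal and Bmal1-/- total RNA. Site 1 of Zfp644 and site 1 of Zfp445 hold most nuclear counts (means 78.5% and 69.7%) and few counts in the other series.

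Between polysomal and total RNA, 149 of 232 member sites differed in usage (64.2%, all sites 68%), 63 higher and 86 lower (all sites 31.3% and 36.7%). Site 3 of Zfp87 (chr13:67521036-67521054, minus) rose from 23.1% ± 13 in total to 74.4% ± 10.8 in polysomal RNA, and the ranges of 0 to 43.8% and 50 to 96.2% did not overlap (log2 1.77, SE 0.12, adjusted p = 3.11e-20). The mean count behind these shares was 21.8 in total and 79.3 in polysomal RNA. Zfp87 was both the member with the largest polysomal rise and the one with the widest polysomal site shift among genes with a mean of at least 50 site counts. These are not separate results, since the rise of the gene came mostly from counts at this site. It lies 5263.5 bp before the annotated gene end, the strand was inferred, and 6 other members lie within 200000 bp. Whether its counts mark RNA ends, priming inside longer RNA or reads of a related gene was not tested. Site 4 of Zfp330 (chr8:82763617-82763652, minus) rose from 39.4% ± 9.63 to 73.3% ± 11.9 (log2 0.89, SE 0.07, adjusted p = 6.29e-18). Site 4 of Zfp110 (chr7:12850518-12850590, plus), a gene whose protein binds the neurotrophin receptor p75, rose from 54.2% ± 9.21 to 77.3% ± 14.1.

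The most 3′ of a gene's tested sites, which need not be its last site, was higher in polysomal RNA in 43 of 78 members and lower in 11. The median difference was 10.7 percentage points. Over all genes tested 51.5% were higher and 17.5% lower, so the members' 3′ shift was near that of other genes. In nuclear RNA the most 3′ tested site was higher in 37 and lower in 22 of 78 members, where 42.2% of all genes were higher and 30.6% lower. Against nuclear RNA, 118 of 216 member sites differed in polysomal RNA (54.6%, all sites 58.3%), 60 higher and 58 lower (all sites 30.6% and 27.7%). Among them was site 1 of Zfp809 (chr9:22235765-22235789, plus), which fell from 46.7% ± 12.2 to 9.27% ± 8.46 (log2 -2.52, SE 0.19, adjusted p = 5.71e-19). Site 3 of Zfp703 (chr8:26981395-26981468, plus), a gene of the NET family of co-repressors, rose from 51.4% to 77.7% (log2 0.59, SE 0.08).

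Rhythms of 24 h were then tested within each series. In wild-type total RNA 26 members passed (11.8%), where 18.9% of all genes did, and 51 passed at an unadjusted p under 0.05 (all genes 31.6%). Of the 26, 14 peaked in the light phase and 12 in the dark, and their median peak-to-trough ratio of 1.63 was close to the 1.61 of all rhythmic genes. The RNA and translation list had 3 (Zfp106, Zfp346 and Zfp706), the imprint and retroelement list 2 (Zfp445 and Zfp809), and the metabolic list 1 (Zfp692). Among 56 genes of the like families Zbtb, Klf, Zkscan and Zscan, 17 passed. None of the 21 rhythmic members with a promoter in the table held the E-box, which 8.2% of member promoters and 10.5% of those of the genes tested held. A set of 21 is too small to tell apart from these shares. Without the libraries that stood apart 24 members passed.

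Zfp809 had 12.8 ± 3.88 CPM at ZT2 (SD, n = 6; 8.50 to 19.2) and 29.3 ± 7.34 CPM at ZT14 (21.2 to 39.0), without overlap. Its fitted peak was at ZT13.9 and its peak-to-trough ratio was 2.06 (adjusted p = 0.000488). Zfp445 was highest at ZT10, with 84.1 ± 12.2 CPM (67.8 to 98.9), and lowest at ZT2, with 54.1 ± 9.32 CPM (39.4 to 64.0), with a ratio of 1.62 and a fitted peak at ZT13.7 (adjusted p = 0.00109). The fitted peaks of these silencers of retroelements and imprints were close, though the highest time means were at ZT14 and ZT10. Zfp276 followed nearly the same course: 4.28 ± 1.30 CPM at ZT2 (2.45 to 5.72) and 8.80 ± 1.95 CPM at ZT10 (6.91 to 11.8), with a peak at ZT12.8 and a ratio of 1.82 (adjusted p = 0.00198).

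The widest ratios were of scarce members. Zfp993 had a ratio of 2.53 (peak ZT11.2), Zfp692 of 2.50 (ZT22.1), Zfp428 of 2.42 (ZT19.6), Zfp213 of 2.4 (ZT16.7) and Zfp420, a KRAB repressor of p53, of 2.05 (ZT18.3). Their adjusted p ran from 0.000137 for Zfp692 to 0.0296 for Zfp428. Zfp428 did not pass for any difference among times (0.129), and with all 4 series in 1 fit Zfp428 (0.0998), Zfp993 (0.0797) and Zfp420 (0.193) did not. Zfp655 peaked earlier than these, at ZT7.74, with 19.5 ± 3.25 CPM at ZT6 (14.5 to 23.0) and 10.9 ± 3.88 CPM at ZT18 (6.03 to 16.6), which overlapped in part (ratio 1.73, adjusted p = 0.00072). Within replicates 1 to 3 alone only 6 members passed, and within replicates 4 to 6 alone 8.

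Few members passed in the other series. In nuclear RNA there were 3 (all genes 5.52%), and 29 at an unadjusted p under 0.05 (all genes 16.5%). The 3 became 7 with the replicate number as a block, 8 with all 4 series in 1 fit and 0 within replicates 1 to 3. Zfp445 had a nuclear ratio of 2.08 with a peak at ZT13.1 (adjusted p = 0.0131), from 58.1 CPM at ZT2 to 122 CPM at ZT18. It did not pass within replicates 1 to 3 (0.281) or within replicates 4 to 6 (0.215). Its site 1 held 69.7% of the site counts in nuclear RNA and 9.22% in total RNA, and rhythms of single sites in nuclear RNA were not tested. Zfp655 had a ratio of 2.11 and a peak at ZT8.82 (adjusted p = 0.033), and Zfp707 a ratio of 1.90 and a peak at ZT1.26 (adjusted p = 0.0122). For any difference among times, neither Zfp655 (0.0782) nor Zfp707 (0.0903) passed in nuclear RNA. In wild-type total RNA Zfp707 had a ratio of 1.59 and an adjusted p of 0.0721.

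In polysomal RNA 3 members passed (all genes 6.9%), and 14 at an unadjusted p under 0.05 (all genes 20.2%). The 3 became 7 with the replicate block, 16 with all 4 series and 0 within replicates 1 to 3. Zfp655 ran from 37.9 ± 6.75 CPM at ZT6 to 18.8 ± 5.83 CPM at ZT18, with a ratio of 1.89 and a peak at ZT8.64 (adjusted p = 0.00125). It was the member that passed in total, nuclear and polysomal RNA, with fitted peaks from ZT7.74 to ZT8.82. Its nuclear call was lost within replicates 1 to 3 (0.0532) and within replicates 4 to 6 (0.34), its polysomal call within replicates 1 to 3 (0.186) and its total RNA call within replicates 4 to 6 (0.0575). Zfp871 had a ratio of 2.4 and a peak at ZT7.46 (adjusted p = 0.00285), from 55.7 CPM at ZT10 to 19.0 CPM at ZT18, against a ratio of 1.28 in total RNA (adjusted p = 0.176). Zfp809 had a ratio of 1.79 and a peak at ZT14.2 (adjusted p = 0.0414), which did not pass without polysomal replicate 1 (adjusted p = 0.0984) or for any difference among times (0.0864). Differences in rhythm between kinds of wild-type RNA were not tested. No member site changed its share with a 24 h rhythm (0 of 229 by edgeR, all sites 0.256%, and 10 at an unadjusted p under 0.05, all sites 8.43%).

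**Figure D4:**
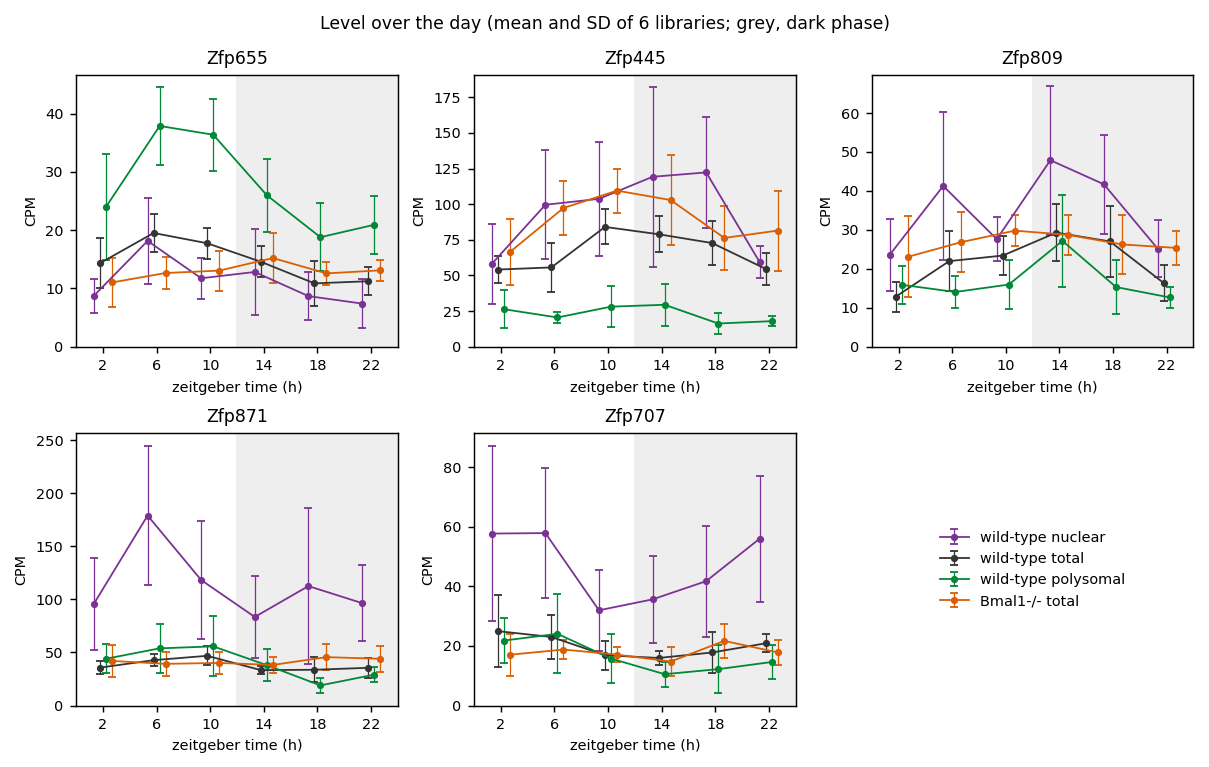
Mean level ± SD (vertical axis, CPM, n = 6) by zeitgeber time (horizontal axis, hours) of 5 Zfp genes in the 3 kinds of wild-type RNA and in Bmal1-/- total RNA; grey marks the dark phase. Zfp655 is highest at ZT6 in total and polysomal RNA, and Zfp809 rises towards ZT14.

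In total RNA labelled Bmal1-/-, 78 members differed from wild type over the mean of the time points: 46 were higher, 32 lower, and 143 did not pass. They are 35.3% of the members, where 44.1% of all genes passed (22.3% higher, 21.8% lower). Changes were small: 4 members (1.81%) changed at least 2-fold, against 4.15% of all genes, the median was 0.03 (all genes 0.01), and no member was without overlap between the groups (all genes 0.0502%). Without the libraries that stood apart 80 passed. The wild-type libraries are those used above, which also set the floor.

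Zfp839 had by far the largest change. It was at 5.47, 8.55 and 27.9 CPM (lowest, median and highest) in wild-type and 15.4, 28.3 and 50.8 CPM in Bmal1-/- libraries, 2.85-fold higher (log2 1.51, SE 0.10, adjusted p = 4.15e-21). The groups overlapped from 15.4 to 27.9 CPM, and the Bmal1-/- median was just above the highest wild-type library. Zfp618, a partner of the hydroxymethylcytosine reader Uhrf2, rose from a median of 1.60 CPM (0.584 to 5.58) to 4.61 CPM (1.53 to 8.01), a log2 change of 1.15 (SE 0.13, adjusted p = 6.59e-11). Zfp608 rose by 0.90 (SE 0.14; medians 1.71 and 3.67 CPM), Zfp30 by 0.73 (SE 0.09; 5.93 and 10.6 CPM) and Zfp612 by 0.69 (SE 0.10; 3.93 and 6.39 CPM). Each of these rose at 6 of 6 time points.

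Among those that fell, Zfp420 went from a median of 2.86 CPM (1.10 to 5.45) to 0.945 CPM (0.133 to 3.20), a log2 change of -1.20 (SE 0.19, adjusted p = 1.75e-07). Zfp991 fell from a median of 4.14 to 2.12 CPM (-1.16, SE 0.17) and Zfp605 from 1.97 to 1.03 CPM (-0.999, SE 0.18), with broad overlap. Zfp951 had -0.96 (SE 0.20, adjusted p = 4.38e-05, but 0.0551 within replicates 1 to 3). The abundant one among them was Zfp467, which promotes fat cell over bone cell fate. It fell from 13.7, 22.2 and 30.9 CPM to 8.45, 14.8 and 26.9 CPM (log2 -0.62, SE 0.07, adjusted p = 6.46e-11), lower at all 6 time points.

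Of the RNA and translation list 7 were higher, 2 lower and 2 did not pass (all genes 22.3% higher, 21.8% lower). Zfp622 rose most, from a median of 21.5 CPM (15.6 to 31.9) to 32.7 CPM (21.4 to 46), a log2 change of 0.56 (SE 0.06, adjusted p = 1.2e-11). The ribosome quality ligase Zfp598 rose by 0.38 (medians 22.7 and 32.2 CPM), Zfp346 by 0.34, Zfp830 by 0.28, Zfp593 by 0.23, Zfp106 by 0.18 and Zfp638 by 0.17. Zfp36 fell by 0.51 on the log2 scale (medians 5.41 and 4.36 CPM). Zfp706 fell by 0.13, a call lost without the libraries that stood apart (-0.10). Of the 5 imprint and retroelement silencers 3 rose and 0 fell, including Zfp445 (0.33, SE 0.08) and Zfp809 (0.25, SE 0.09). The SUMO ligase Zfp451 rose by 0.64 (SE 0.08). Activators gave 0 higher and 2 lower of 7, and co-repressors 4 higher and 1 lower of 19.

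Marker genes of other cells moved too: 4 cholangiocyte markers summed to 9.90 to 53.0 CPM (median 19.0) in wild-type and 33.3 to 117 CPM (median 58.2) in Bmal1-/- total RNA, and stellate cell markers to medians of 298 and 376 CPM. No marker was at 0 throughout, and their part in the result was not tested. Site usage changed little: 13 of 228 member sites passed (5.7%, all sites 7.09%) in 8 genes, 6 higher and 7 lower (all sites 3.77% and 3.32%). Site 4 of Zfp451 (chr1:33761550-33761631, minus) fell from 43.2% ± 10.8 to 30.8% ± 7.65 of the gene's counts (log2 -0.48, SE 0.08, adjusted p = 1.82e-05), and site 4 of Zfp330 rose from 39.4% to 47.9% (log2 0.30, adjusted p = 0.0275). The most 3′ tested site was higher in 2 and lower in 5 of 79 members, where 1.92% of all genes were higher and 5.13% lower.

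No member passed the test of a 24 h rhythm within Bmal1-/- total RNA (edgeR, 11 at an unadjusted p under 0.05 against 4.03% of all genes, 0 for any difference among the 6 times, and 0.00836% of all genes by the main test). The test of a different rhythm, which compares the daily courses directly, was passed by 5 members (all genes 5.22%): Zfp277, Zfp422, Zfp213, Zfp655 and Zfp106. At an unadjusted p under 0.05 there were 26 (11.8%, all genes 17.6%). The 5 had all passed the rhythm test in wild type.

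Zfp277, a partner of the Polycomb protein Bmi1, was higher by day in wild type, with mean levels of 10.6, 11.2 and 10.8 CPM at ZT2, ZT6 and ZT10 and 8.07, 7.64 and 7.96 CPM at ZT14, ZT18 and ZT22. In Bmal1-/- the means were 8.66, 9.45 and 9.34 CPM at the first 3 times and 11.4, 11 and 9.49 CPM at the later ones (adjusted p of the difference = 0.0012). The higher means there were thus those of ZT14 and ZT18, and ZT22 was close to ZT6 and ZT10. The fitted peaks were ZT5.82 (ratio 1.49) and ZT15.4 (ratio 1.24). Zfp422 likewise was highest in wild type at ZT2, with 7.56 ± 1.70 CPM (5.30 to 9.59), against 4.34 ± 0.507 CPM at ZT18 (3.89 to 5.24). Its fitted peaks were ZT2.82 (ratio 1.66) in wild type and ZT18.8 (ratio 1.47) in Bmal1-/- (adjusted p of the difference = 0.00999). In Bmal1-/- neither Zfp277 nor Zfp422 passed as rhythmic, so the test shows a different course and not a reversed rhythm.

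Zfp213 (adjusted p = 0.0135), Zfp655 (0.0377) and Zfp106 (0.0455) had ratios of 2.4, 1.73 and 1.58 in wild type. Zfp655, from 10.9 to 19.5 CPM in its wild-type means, stayed between means of 11 and 15.2 CPM in Bmal1-/-. Zfp106 did not pass without the libraries that stood apart (0.0658). When all 4 series were fitted together, none of the 5 differences passed (adjusted p from 0.0976 to 0.235).

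**Figure D5:**
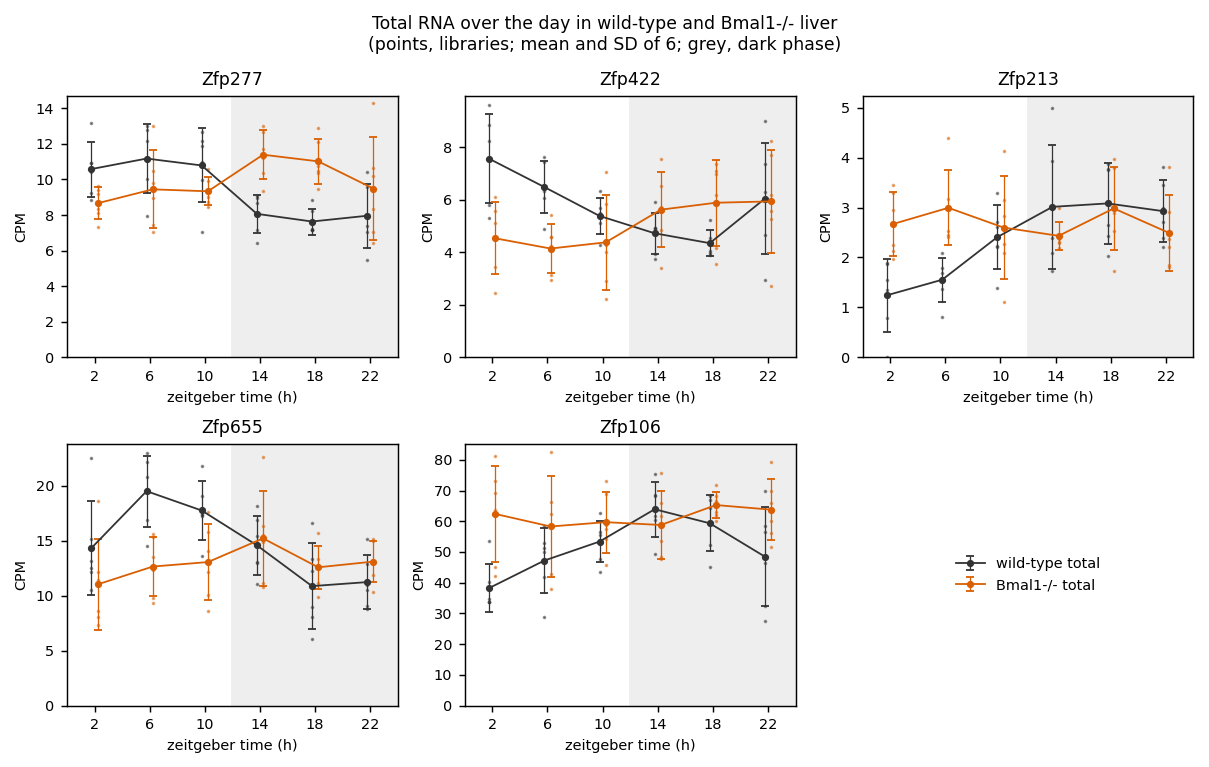
Level by zeitgeber time (horizontal axis, hours; vertical axis, CPM) of the 5 Zfp genes with a different rhythm in wild-type and Bmal1-/- total RNA; points are libraries, lines join the means of 6, and grey marks the dark phase. Zfp277 is higher by day in wild type, and in Bmal1-/- its means are highest at ZT14 and ZT18.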

How the data were processed

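Per the labels' protocols, QuantSeq 3′ libraries were made from TRIzol-extracted, DNase-treated RNA. The authors deposited raw counts per gene and per polyadenylation site, 1 column per library, which were used as deposited; their normalized tables were not used. The submitters' processing notes name STAR 2.4.2a, HOMER, edgeR, mm10 and GRCm38.p5. Groups and replicate numbers came from the sample titles, and 0 columns were left without a sample. Among 360 pairs of libraries within a group, 0 were identical (smallest chi-square per degree of freedom 4.35).

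Gene counts were fitted in R 4.3.3 with edgeR 4.0.16 (TMM, robust quasi-likelihood F tests), 12 groups of series and time per comparison, over the 11964 genes that reached a mean of 10 counts in wild-type total RNA. P-values were adjusted by Benjamini and Hochberg over all of them, at 0.05. CPM shown are of the raw library totals. Rhythm was a cosine and sine of 24 h within a series, and a different rhythm its interaction with genotype. A site was given to a gene when it lay within it or up to 1000 bp past its end on the same strand (RefSeq GRCm38.p6). Strand was inferred from the ratio of site to gene counts (0.3 to 1.5) for 29 members. Of 29199 filtered sites, 22.1% ended within 25 bp of a gene end, and 0.0763% did so once positions were moved by 5000 bp. For usage the site counts were fitted with an offset, the log of the summed counts of the gene's sites plus 0.5. Sites holding 5% or more of the sum were tested where that sum averaged 20 or more in wild-type total RNA. The 5% was the mean of the shares in both series compared, so a high share in 1 series could suffice. DESeq2 1.42.0 was an alternative, and the fits were tested on simulated data.

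Genes were named by rule: the 10 most abundant, those nearest the floor, the 5 largest rises and falls per comparison with 1 direction at all 6 times, the RNA and translation list, the rhythmic members with the largest ratios, and the widest usage differences where a gene's summed site counts averaged 50 or more. Genes named for lack of overlap or membership of another list were added to these. The members and lists were chosen with earlier results of these data known, and the lists support nothing by themselves. A split of members by KRAB domain had been planned, but no protein table was used here.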

Additional observations from a re-analysis of the deposited data

Results flagged for a closer look

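In 4 of 66 groups of wild-type libraries checked (6.06%), 1 library lay far from the other 5 of its time point, with a gap to its nearest neighbour above the limit of Dixon's test for 6 samples. Chance marks about 1 in 20 groups. Zfp106 was at 53.5 CPM in replicate 3 of ZT2, where the others had 33.7 to 40.1 CPM. Zfp428 was at 2.09 CPM in replicate 6 of ZT6, where the others had 0.527 to 1.10 CPM. Zfp692 was at 0.990 CPM in replicate 3 of ZT14, below the 1.72 to 2.12 CPM of the others. Zfp993 was at 5.87 CPM in replicate 1 of ZT18, where the others had 1.67 to 2.34 CPM.

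For 5 members the daily course in Bmal1-/- differed from that in wild-type total RNA, by edgeR's test of the interaction: Zfp277 (adjusted p = 0.0012), Zfp422 (0.00999), Zfp213 (0.0135), Zfp655 (0.0377) and Zfp106 (0.0455). They are 2.26% of the members, where 5.22% of all genes passed. None of the 5 passed with all 4 series in 1 fit (0.0976 to 0.235), and Zfp106 did not without the libraries that stood apart (0.0658). Zfp106 thus stands in both groups of results.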

How the results depend on the processing

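Depth limits what can be said of the 125 members below 5 CPM. Of 109 recomputed summary values 87 stayed within 1.5 times of the reported one and 22 moved. Of the values of named genes, 814 kept direction and call, 73 lost the call, 8 gained one and 11 reversed. With the replicate number as a block, the comparisons of nuclear and polysomal with total RNA, of polysomal with nuclear RNA and of Bmal1-/- with wild type called 182, 146, 158 and 83 members. The block gave 40 rhythmic members in wild-type total, 7 in nuclear and 7 in polysomal RNA and 9 differences in rhythm. Same-numbered wild-type total and nuclear libraries deviated together (mean correlation 0.29, above 0.1 in 34 of 36 pairs, 29 best with their own number). Total and polysomal libraries did not (-0.11). Wild-type and Bmal1-/- total libraries did so in part (0.07, above 0.1 in 15 of 36 pairs, 14 best with their own number). Numbers thus do not pair the samples throughout, and what they stand for was not tested.

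Rhythm in wild-type total RNA (26 members) became 15 for any difference among times, 6 in replicates 1 to 3, 8 in replicates 4 to 6 and 7 with all 4 series in 1 fit. In nuclear RNA (3) it became 0 in replicates 1 to 3, 1 in replicates 4 to 6 and 8 with all series. In polysomal RNA (3) it became 0 in replicates 1 to 3 and 16 with all series. The differences in rhythm (5) became 2, 1 and 0. Usage calls fell with a minimum of 50 counts per gene, which leaves fewer genes, to 88 (nuclear), 73 (polysomal), 63 (polysomal against nuclear) and 6 (Bmal1-/-), to 96 for polysomal RNA in replicates 4 to 6 and to 3 for Bmal1-/- in replicates 1 to 3. Fits on 3 replicates hold fewer libraries. For the others the cause was not tested.

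Reversals were of small changes. Zfp207 was at 0.15 in nuclear RNA (replicates 4 to 6) and -0.0558 in Bmal1-/- (replicates 1 to 3). Zfp326 was at 0.18 and Zfp598 at -0.0278 in polysomal against nuclear RNA (replicates 1 to 3), and Zfp106 at -0.0863 in Bmal1-/- (replicates 4 to 6). Zfp326 in Bmal1-/- turned to -0.0057 (median-ratio scaling), -0.0056 (floor over the fit), -0.0065 (all genes), -0.0627 (replicates 1 to 3), -0.0065 (without libraries that stood apart) and -0.0086 (DESeq2). Leaving out the libraries that stood apart, and polysomal replicate 1 in the rhythm test, were chosen after seeing the data.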

Other observations

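The 29 members on chromosome 17, a group chosen after its values were seen, were lower in nuclear than in total RNA in 16 cases and higher in 9 (median log2 -0.35), where 41.8% of all genes were lower and 40.9% higher. In polysomal against total RNA 16 were lower and 2 higher (median -0.39, all genes 40.3% and 35.9%). Polysomal against nuclear RNA gave 13 lower and 10 higher (all genes 41% and 39.7%). In nuclear against total RNA the 54 members on chromosome 7 went the other way, with 25 higher and 16 lower. Rhythm in wild-type total RNA was called for 8 of 115 clustered members and for 18 of 105 without a close neighbour, where 18.9% of all genes passed. The 5 members with a different rhythm in Bmal1-/- were all without a close neighbour. In Bmal1-/- total RNA 8 of the 32 members with symbols from Zfp900 to Zfp999 were lower and 1 was higher, where 21.8% of all genes were lower and 22.3% higher. No test was run on these splits.

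Among the 56 genes of the Zbtb, Klf, Zkscan and Zscan families, 27 were higher and 15 lower in nuclear RNA, 15 higher and 26 lower in polysomal RNA (both against total RNA), and 10 higher and 9 lower in Bmal1-/- total RNA. Over all genes tested the shares higher and lower were 40.9% and 41.8%, 35.9% and 40.3%, and 22.3% and 21.8%, in the same order.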
